A study of Mus musculus with 6 samples.

Results

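Acta2, Actg2, Myh11, Mylk, Tpm2, Cnn1, Tagln and Des are genes of the smooth muscle contractile apparatus that are commonly used as markers of peritubular myoid cells. These 8 genes were given by symbol, were matched to their mouse Ensembl identifiers, and were read from the opposite-strand column of the count tables. They are 8 of the 53700 gene identifiers counted and, all 8, of the 21902 genes with enough reads to be tested. Levels were measured by sequencing total RNA of whole testes taken at postnatal day 45. The 3 libraries labelled WT came from Msl3 wild-type mice and the 3 labelled cKO from conditional knockouts made with a floxed Msl3 allele, in which recognition sites of a recombinase flank part of the gene. The strain is given as Msl3em1Forni/C57BL/6J for both groups, and the recombinase line, and so the cells in which the allele is removed, is not given in the sources used here.

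Peritubular myoid cells are flat, smooth-muscle-like cells that wrap the seminiferous tubules, and their contractions move immotile sperm along the tubule towards the rete testis. They contract as smooth muscle does: calcium-bound calmodulin activates the kinase encoded by Mylk, the kinase phosphorylates the light chains of smooth muscle myosin, and the myosin pulls on actin filaments dressed with tropomyosin and calponin. The same genes are active in the muscle cells of blood vessels. In mouse testis Actg2 is also known to be transcribed in haploid germ cells. In whole-testis RNA the source of a read is not known, and fewer cells of a type cannot be told apart from less RNA per cell.

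The libraries held 56991431 to 73766444 reads assigned to genes. The targeted gene was not lower by a detectable amount in the libraries labelled cKO: Msl3 had a mean of 16.9 ± 1.68 CPM (SD, n = 3) with the WT label and 15.5 ± 0.649 CPM (SD, n = 3) with the cKO label, where CPM is the usual unit of reads relative to scaled library size. Its log2 fold change was -0.12 (SE 0.088, edgeR quasi-likelihood adjusted p 0.550). Gene counts cover all exons of Msl3, so a loss of single exons could pass unseen. Groups are therefore named by their labels, as WT-labelled and cKO-labelled libraries, and every fold change is that of the cKO-labelled over the WT-labelled.

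None of the 8 contractile genes passed an adjusted p of 0.05 (0 of 8 with edgeR, where 0.0183% of all tested genes passed, and 0 of 8 with DESeq2, where 1.40% of the genes with an adjusted p passed). Their means in the cKO-labelled libraries lay between 87.0% and 125% of the WT-labelled. The 2 genes with the longest exon sequence, Myh11 and Mylk, had the higher means in the cKO-labelled libraries, and the other 6 had the lower means, where 49.3% of all tested genes were lower. At an unadjusted edgeR p under 0.05 there were 3 of 8, against 13.9% of all tested genes: Tagln and Tpm2 lower (6.54% of all tested) and Myh11 higher (7.32%). Of the 8, Tagln and Tpm2 alone had groups that did not overlap, against 18.9% of all tested genes, and both were lower, against 8.86%. The median log2 fold change of the 8 was -0.08, beside 0.00301 over all tested genes.

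Regulatory sequence shared by muscle genes was examined first. Smooth muscle genes are known to be switched on by serum response factor, which binds the CArG box, CC and GG around 6 bases that are each A or T. The RefSeq promoter table (GRCm38.p6) held 5 of the 8 genes, Acta2, Cnn1, Des, Mylk and Tpm2. In the 250 bases before the annotated start, searched on the strand of the gene (the motif reads the same on the other strand), 0 of these 5 held an exact CArG box and 1 held a match with at most 1 mismatch. Exact boxes occurred in 1.47%, and matches with at most 1 mismatch in 18.6%, of all 32851 promoter windows. The gene with matches was Acta2, which had 2, beginning 84 and 34 bases before the start. Myl9, the gene for the regulatory light chain that Mylk phosphorylates, had an exact box beginning 161 bases and a match with 1 mismatch beginning 99 bases before its start. Both stretches are shown 5′ to 3′ with the matches in capitals, Acta2 on the minus strand at chr19:34255384-34255473 and Myl9 on the plus strand at chr2:156775294-156775378.
Acta2: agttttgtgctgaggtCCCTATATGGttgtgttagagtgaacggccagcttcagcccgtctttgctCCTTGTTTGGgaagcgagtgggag
Myl9: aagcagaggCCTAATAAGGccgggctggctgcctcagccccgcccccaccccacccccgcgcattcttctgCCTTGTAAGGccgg
Distances are from the RefSeq start. For Acta2 the GENCODE span, 34241090 to 34255590, starts farther upstream on the minus strand. The Acta2 stretch shown therefore lies inside that span, and its distances hold for the RefSeq start alone. These are matches of letters and not evidence of binding. Of 25 further contractile genes listed for comparison, 23 had a promoter in the table and 5 of them (Cnn2, Dmd, Myl6, Myl9 and Vcl) held an exact box.

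The genes differed far more from each other than between groups. Per kb of merged exons, which is the length of all annotated exons of a gene with overlaps counted once, Actg2 stood highest at 169 ± 10.7 CPM per kb (SD over 6 libraries). Acta2 followed at 26.5 ± 1.06 CPM per kb, so that Actg2 was 6.38 times higher. Tagln (6.27 ± 0.551), Myh11 (5.42 ± 1.11) and Mylk (5.42 ± 0.353 CPM per kb) formed a middle group whose ranges over the 6 libraries overlapped. Tpm2 was at 3.84 ± 0.299 CPM per kb, apart from its neighbours in the order. Des (1.75 ± 0.0919) and Cnn1 (1.74 ± 0.150 CPM per kb) were lowest and overlapped, with Actg2 97.0 times higher than Cnn1. With the length of the longest transcript in place of merged exons, Myh11 and Mylk changed places and the other ranks stayed as they were. Actg2 alone took 53.2% to 60.3% of the reads of the 8 genes in a library.

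**Figure D1:**
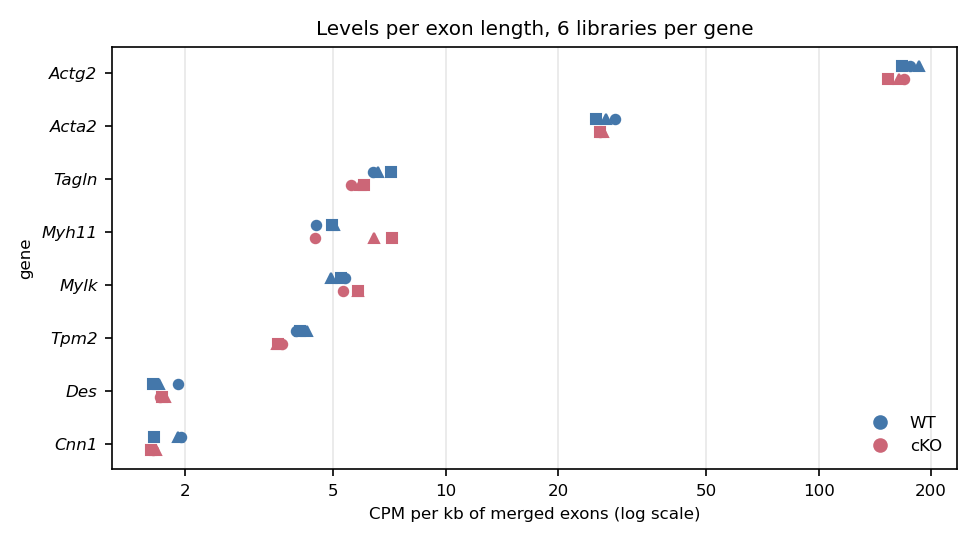
Level of each contractile gene in CPM per kb of merged exons (log axis), one point per library (blue, labelled WT; red, labelled cKO; circle, square and triangle, replicates 1, 2 and 3). Actg2, at 169 CPM per kb, lies far to the right of the other 7 genes, and the libraries of one gene lie close together beside the distances between most genes.

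The smooth muscle actins came first by level. Acta2 (chromosome 19, minus strand, 34241090 to 34255590) encodes the alpha actin of smooth muscle thin filaments. It was at 62.3, 55.7 and 59.0 CPM in WT 1, 2 and 3 and at 56.96, 57.1 and 58.0 CPM in cKO 1, 2 and 3. The cKO-labelled values all lay inside the range of the WT-labelled. The log2 fold change of Acta2 was -0.04 (SE 0.067, edgeR adjusted p 0.828), with 95% limits of 87.8% and 108% of the WT level. Actg2 (chromosome 6, minus strand, 83512905 to 83536265) encodes the gamma actin of enteric smooth muscle. It was at 274, 260 and 288 CPM in the WT-labelled libraries and at 263, 239 and 255 CPM in the cKO-labelled ones, so that cKO 1 lay above WT 2 and the groups overlapped. For Actg2 the log2 fold change was -0.12 (SE 0.069, edgeR adjusted p 0.461), with 95% limits of 83.0% and 102%. The log2 ratio of Actg2 to Acta2 within a library was 2.22 ± 0.0775 (SD, n = 3) in the WT-labelled libraries and 2.14 ± 0.0704 (SD, n = 3) in the cKO-labelled ones, and overlapped. Although actins are close relatives, no 75-base word of the transcripts of these 8 genes occurred in the same direction in an annotated transcript of another gene. Reads of this length without mismatches could thus be told apart among annotated transcripts read in that direction. Reverse complements and the rest of the genome were not searched.

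The motor and its kinase had the higher means in the cKO-labelled libraries. Myh11 (chromosome 16, minus strand, 14194535 to 14291372) encodes the heavy chain of smooth muscle myosin. It was at 34.2, 37.6 and 38.2 CPM in the WT-labelled libraries and at 33.9, 54.6 and 48.7 CPM in the cKO-labelled ones. The library cKO 1 was the lowest of all 6, while cKO 2 and cKO 3 were above every WT-labelled library. This gave Myh11 the largest spread of the 8 genes, 20.6% of its mean over the 6 libraries, against 3.99% to 8.79% for the other 7. For Myh11 the log2 fold change was 0.32 (SE 0.14, edgeR adjusted p 0.341), with 95% limits of 101% and 153% of the WT level. Without cKO 1 it was 0.49 with an edgeR adjusted p of 0.00927, and without cKO 2 it was 0.17 with 0.675. With no filter on low counts it was 0.31 with an edgeR adjusted p of 0.0222. Far more genes passed in the fits where Myh11 did: 628 of about 22260 tested without cKO 1 and 757 of about 36600 with no filter, against 4 of 21902 in the main fit. Mylk (chromosome 16, plus strand, 34745210 to 35002420) encodes myosin light chain kinase in several isoforms, which a gene count adds together. It was at 60.4, 59.2 and 55.5 CPM in the WT-labelled libraries and at 60.0, 65.7 and 65.7 CPM in the cKO-labelled ones. For Mylk, cKO 1 lay within the WT range, and the other 2 lay above it as for Myh11. The log2 fold change of Mylk was 0.13 (SE 0.069, edgeR adjusted p 0.428), with 95% limits of 98.4% and 121%, and without WT 3 it was 0.084.

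Tpm2 and Tagln, both for actin-binding proteins, had lower means in the cKO-labelled libraries. Tpm2 (chromosome 4, minus strand, 43514711 to 43523765) encodes beta tropomyosin, which lies along actin filaments in smooth and striated muscle. It was at 11.6, 11.9 and 12.3 CPM in the WT-labelled libraries and at 10.6, 10.3 and 10.3 CPM in the cKO-labelled ones, without overlap. For Tpm2 the log2 fold change was -0.20 (SE 0.079, edgeR adjusted p 0.320), with 95% limits of 77.5% and 98.4% of the WT level. Tagln (chromosome 9, minus strand, 45929619 to 45936058) encodes transgelin, an actin-bundling protein also called SM22 alpha. It was at 12.7, 14.2 and 13.1 CPM in the WT-labelled libraries and at 11.1, 12.02 and 11.7 CPM in the cKO-labelled ones, also without overlap. The log2 fold change of Tagln was -0.20 (SE 0.082, edgeR adjusted p 0.323), with 95% limits of 76.8% and 98.6%. The antisense gene Gm48529 covers 62.4% of the exon sequence of Tagln on the opposite strand, and held 135 to 172 reads a library, beside 673 to 920 for Tagln. Pcsk7, also on the opposite strand, covers 5.43% of it and held 1681 to 2269 reads a library. With unstranded counts the log2 fold change of Tagln was -0.29 (SE 0.25, unadjusted edgeR p 0.265).

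Calponin and desmin were the genes with the lowest levels. Cnn1 (chromosome 9, plus strand, 22099216 to 22109630) encodes calponin 1, which binds actin and slows the myosin motor. It was at 5.34, 4.53 and 5.24 CPM in the WT-labelled libraries and at 4.49, 4.43 and 4.57 CPM in the cKO-labelled ones. WT 2 lay among the cKO-labelled libraries and the other 2 WT-labelled above them, and without WT 2 the log2 fold change went from -0.16 (SE 0.11, edgeR adjusted p 0.519) to -0.23 (edgeR adjusted p 0.673). Des (chromosome 1, plus strand, 75360329 to 75368579) encodes desmin, the intermediate filament protein of muscle cells. It was at 7.19, 6.18 and 6.40 CPM in the WT-labelled libraries and at 6.45, 6.54 and 6.66 CPM in the cKO-labelled ones, inside the WT range. For Des the log2 fold change was -0.01 (SE 0.098, edgeR adjusted p 0.978), with 95% limits of 85.7% and 115%. Cnn1 had 248 to 328 reads and Des 366 to 471 reads a library, the fewest of the 8 genes.

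**Figure D2:**
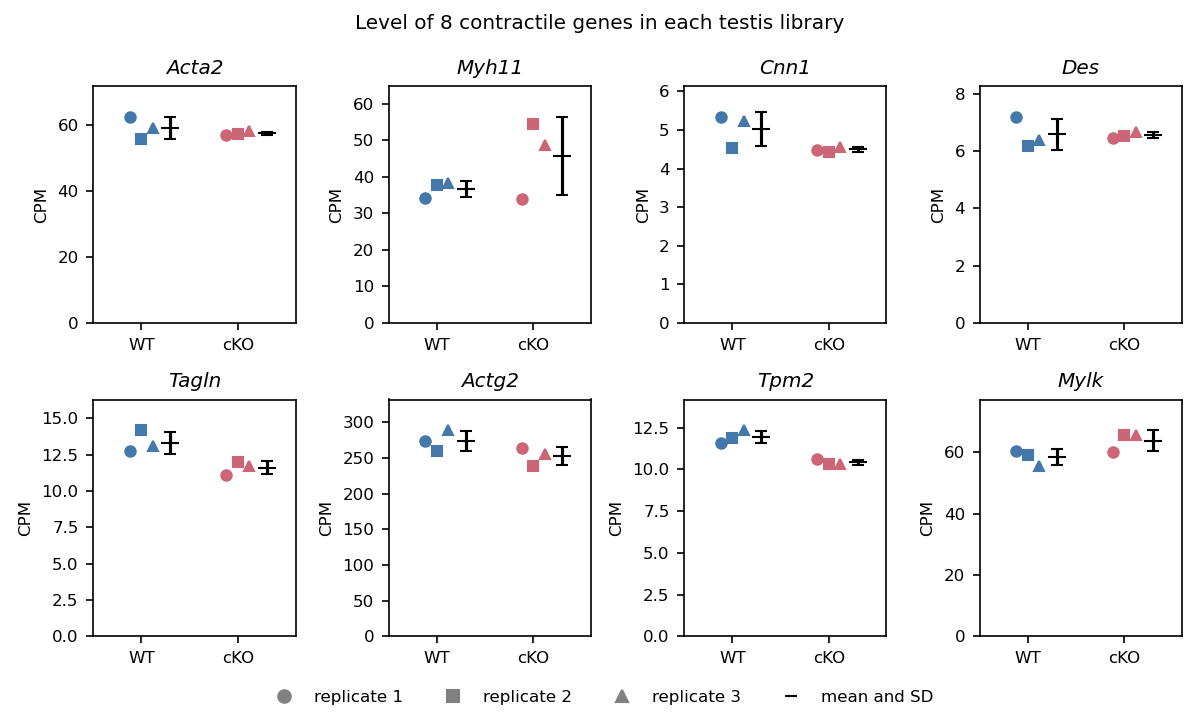
CPM of each contractile gene by library, with axes from 0 (circle, square and triangle, replicates 1, 2 and 3; black bar, mean and SD over 3 libraries). In Tagln and Tpm2 the cKO-labelled libraries lie below all WT-labelled libraries, and in Myh11 the libraries cKO 2 and cKO 3, at 54.6 and 48.7 CPM, stand apart from the other 4.

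The summed level of the 8 genes, of which Actg2 is the larger part, overlapped between the groups. It was 449 to 478 CPM in the WT-labelled libraries and 447 to 460 CPM in the cKO-labelled ones. Without Actg2 the sum was 194, 189 and 190 CPM in WT 1, 2 and 3 and 184, 211 and 206 CPM in cKO 1, 2 and 3, so that cKO 1 was the lowest and the other 2 cKO-labelled libraries were above every WT-labelled one. Within a library, Myh11 stood higher against Tagln, and Mylk against Tpm2, in the cKO-labelled libraries. Tagln and Tpm2 are the 2 genes whose groups did not overlap, so these ratios do not stand for all genes with shorter exon sequence. The log2 ratio of Myh11 to Tagln was 1.43, 1.41 and 1.54 in the WT-labelled libraries and 1.61, 2.18 and 2.06 in the cKO-labelled ones. That of Mylk to Tpm2 was 2.38, 2.32 and 2.17 against 2.50, 2.67 and 2.67. Both ratios, picked after the levels were known and so given without a test, were higher in each cKO-labelled library than in any WT-labelled one. Those 2 pairs differ in exon length: Myh11 has 7.60 kb and Mylk 11.3 kb of merged exons, and the other 6 genes have 1.56 to 3.75 kb.

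Fold changes varied with exon length across all other genes as well, and the part of this in the values of the contractile genes was not tested beyond a correction for length. Among the genes other than these 8 with a mean of at least 1 CPM, the 1581 genes under 1 kb had a median log2 fold change of -0.17 and the 2523 of 1 to 2 kb one of -0.09. The 4751 genes of 2 to 4 kb had a median of -0.01, the 5394 of 4 to 8 kb one of 0.06, and the 2543 over 8 kb one of 0.13. Mylk (0.13) stood at the median of its length class, Des (-0.01) at that of its own, and Acta2 (-0.04) and Actg2 (-0.12) within 1 SE of theirs. Myh11 (0.32) lay above the median of genes of 4 to 8 kb, and Tagln, Cnn1 and Tpm2 (-0.20, -0.16 and -0.20) below those of their classes.

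**Figure D3:**
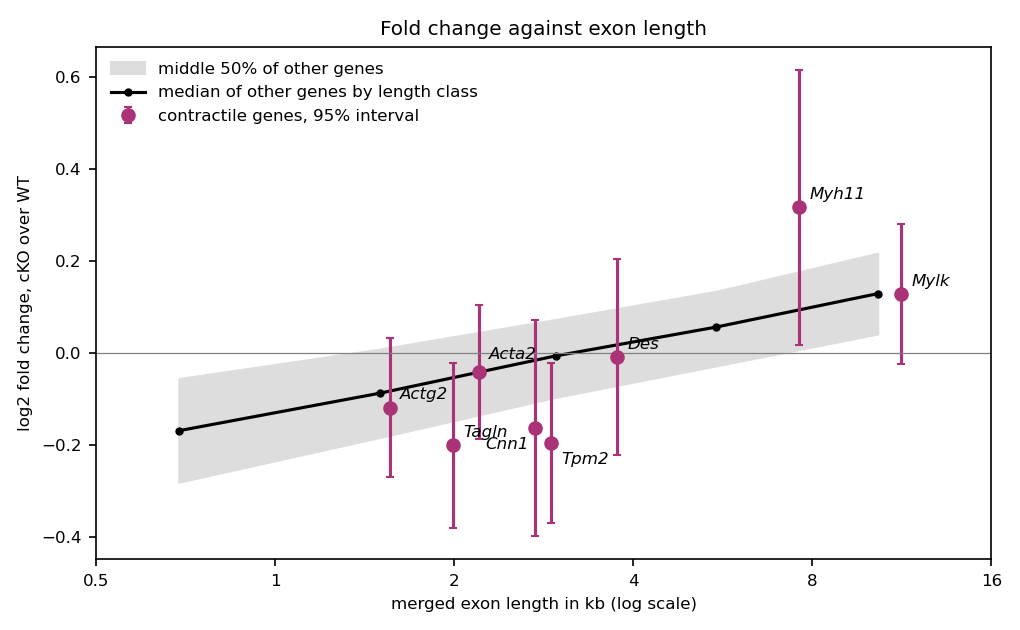
Log2 fold change (cKO over WT) of the 8 contractile genes with 95% intervals against merged exon length (log axis); the black line joins the medians of all other genes in 5 length classes and the grey band holds their middle 50%. The medians of other genes climb from -0.17 to 0.13 with length, and Myh11 lies above the band while Tagln, Tpm2 and Cnn1 lie below it.

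The same contrast was taken in each library, as the median of genes over 8 kb minus that of genes under 1 kb after centring each gene on its mean log2 CPM. It was -0.06, -0.23 and -0.17 in the WT-labelled libraries 1, 2 and 3 and 0.02, 0.28 and 0.12 in cKO 1, 2 and 3. This contrast was taken after the trend over length had been seen, restates it by library, and is given without a test. The mean of Myh11 and Mylk minus the mean of the other 6 contractile genes, centred likewise, was -0.22, -0.08 and -0.19 in the WT-labelled libraries and -0.08, 0.34 and 0.23 in the cKO-labelled ones. In both contrasts cKO 2 was highest, cKO 3 next, and cKO 1 nearest to the WT-labelled libraries.

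**Figure D4:**
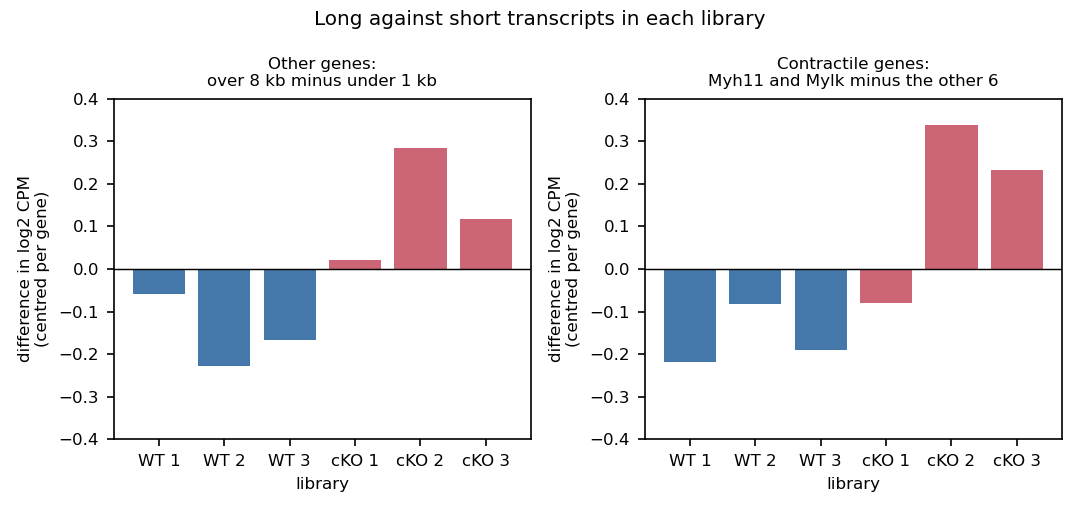
Difference in centred log2 CPM between long and short genes in each library (blue, labelled WT; red, labelled cKO), for all other genes on the left and for the contractile genes on the right. The libraries cKO 2 and cKO 3 have the highest bars in both panels (0.28 and 0.12, 0.34 and 0.23), and cKO 1 is close to 0 on the left.

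A correction of each library for exon length, chosen after these values had been seen, brought the fold changes of most of the contractile genes nearer to 0. The log2 fold change of Mylk went from 0.13 to 0.01, that of Actg2 from -0.12 to -0.04 and that of Myh11 from 0.32 to 0.23. Tagln went from -0.20 to -0.14 and Cnn1 from -0.16 to -0.14. Tpm2 went from -0.20 to -0.18 and was the 1 of 8 left at an unadjusted edgeR p under 0.05, against 9.83% of all tested genes in that fit. With the correction 0 of the 8 passed the edgeR adjusted threshold (adjusted p 0.488 to 0.989), where 0.0228% of all tested genes did. Under the correction for both length and GC content, Tpm2 was at -0.22 (unadjusted edgeR p 0.0147) and Des at -0.06, both farther from 0 than without correction. The rest stayed nearer to 0 than without correction, among them Myh11 at 0.21, Tagln at -0.16, Cnn1 at -0.15 and Mylk at -0.02.

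Genes of the wider contractile apparatus had values in both directions. Of 25 partner genes listed with the roles in view, such as light chains, caldesmon, phosphatase subunits and adhesion proteins, 16 were higher and 9 lower in the cKO-labelled libraries, 0 passed the adjusted threshold with edgeR or DESeq2, and 6 had an unadjusted edgeR p under 0.05 (13.9% of all tested genes): Ppp1r12a, Ppp1r12b, Synm and Vcl higher (7.32%), Csrp1 and Myl6 lower (6.54%). Their median log2 fold change was 0.06, and 0.05 with the length correction. With that correction 5 of the 25 had an unadjusted edgeR p under 0.05, against 9.83% of all tested genes. These were Ppp1r12a, higher, and Csrp1, Dmd, Myl6 and Tpm1, lower. The highest were Synm (0.27), which encodes the desmin-associated filament protein synemin, and Ppp1r12a (0.26), the targeting subunit of the phosphatase that opposes Mylk. Ppp1r12a was at 61.6 ± 2.63 CPM (SD, n = 3) in the WT-labelled libraries and 73.8 ± 3.08 CPM (SD, n = 3) in the cKO-labelled ones, without overlap (edgeR adjusted p 0.277). The lowest were Csrp1 (-0.21), a cytoskeletal LIM protein gene, and Myl6 (-0.19), the essential myosin light chain. Merged exons measure 7.93 and 8.02 kb in Synm and Ppp1r12a and 1.96 and 3.19 kb in Csrp1 and Myl6.

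Most regulators of muscle genes had the higher means in the cKO-labelled libraries. Of 15 listed, 13 were higher and 2 lower, 6 had an unadjusted edgeR p under 0.05, all higher (7.32% of all tested genes), and 0 passed the adjusted threshold with edgeR (lowest 0.301) or DESeq2. Their median was 0.18. With the length correction it was 0.12, and 3 were left at an unadjusted edgeR p under 0.05, against 9.83% of all tested genes. Their median merged exon length was 6.11 kb, and 67.4% of other genes of 4 to 8 kb with at least 1 CPM were higher. The highest were Tead1 (0.30) and Mrtfa (0.25), a cofactor of serum response factor, and the lowest Fhl2 (-0.14) and Mef2c (-0.02). Srf itself was at 39.2 ± 0.759 CPM (SD, n = 3) in the WT-labelled libraries and 44.2 ± 2.39 CPM (SD, n = 3) in the cKO-labelled ones (log2 fold change 0.17, edgeR adjusted p 0.313). Many of these genes are active in other testis cells too, so their levels are not those of myoid cells alone. Myocd, the muscle-restricted cofactor, was at 0.873 ± 0.219 and 1.02 ± 0.105 CPM (SD, n = 3 each), with overlap.

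Receptors and messengers that start or stop contraction were split. Of 17 tested of 18 listed, 9 were higher and 8 lower, with 0 past the adjusted threshold in edgeR or DESeq2 and a median of 0.02, and -0.036 with the length correction. At an unadjusted edgeR p under 0.05 (13.9% of all tested genes) were Edn1, Oxtr, Itpr1 and Rock1, higher, and Avpr1a and Prkg1, lower. With the length correction 4 of the 17 were, against 9.83% of all tested genes: Edn1 and Oxtr higher, Gucy1a1 and Prkg1 lower. Itpr1, Rock1 and Avpr1a were not. Edn1, the gene of the contractile peptide endothelin 1 (0.47), and Oxtr, the oxytocin receptor gene (0.32), had the highest values. Oxtr was at 8.29 ± 1.11 CPM (SD, n = 3) in the WT-labelled libraries and 10.3 ± 0.302 CPM (SD, n = 3) in the cKO-labelled ones, without overlap (edgeR adjusted p 0.290). Avpr1a, a vasopressin receptor gene (-0.46), and Gucy1a1, a subunit of the nitric oxide receptor (-0.27), had the lowest. Edn1 and Avpr1a were low, at 1.06 and 1.31 CPM over the 6 libraries.

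Relatives of the contractile genes in the same families were compared because they do the same work in other cells. Of 15 listed 12 were tested, 7 higher and 5 lower, with 0 past the adjusted threshold in edgeR or DESeq2 and a median of 0.03, also with the length correction. At an unadjusted edgeR p under 0.05 (13.9% of all tested genes) were Myh9 and Myh10, higher, and Tagln3, lower. The same 3 were so with the length correction, against 9.83% of all tested genes. The non-muscle myosin heavy chain genes Myh10 (0.36) and Myh9 (0.30), with 10.5 and 12.9 kb of merged exons, were the highest, and Cnn3 (-0.07) and Tagln2 (-0.07) the lowest of those with at least 1 CPM. Myh10 repeated the split seen in Myh11, at 105, 106 and 94.0 CPM in the WT-labelled libraries and 103, 157 and 131 CPM in the cKO-labelled ones. Matrix and signalling genes of peritubular and interstitial cells had 13 of 15 higher, 4 at an unadjusted edgeR p under 0.05, all higher (7.32% of all tested genes), 0 past the adjusted threshold with edgeR, 1 (Fn1, higher) with DESeq2 (1.40%), and a median of 0.13 (0.10 with the length correction). With the length correction 3 of the 15 were at an unadjusted edgeR p under 0.05, against 9.83% of all tested genes. Their median merged exon length was 6.56 kb, in a class, 4 to 8 kb, where 67.4% of other genes were higher. Fn1 (0.42), the fibronectin gene, and Lama2 (0.31), a laminin gene, both over 8 kb, were the highest, and Dcn (-0.19) and Csf1 (-0.01) the lowest.

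**Figure D5:**
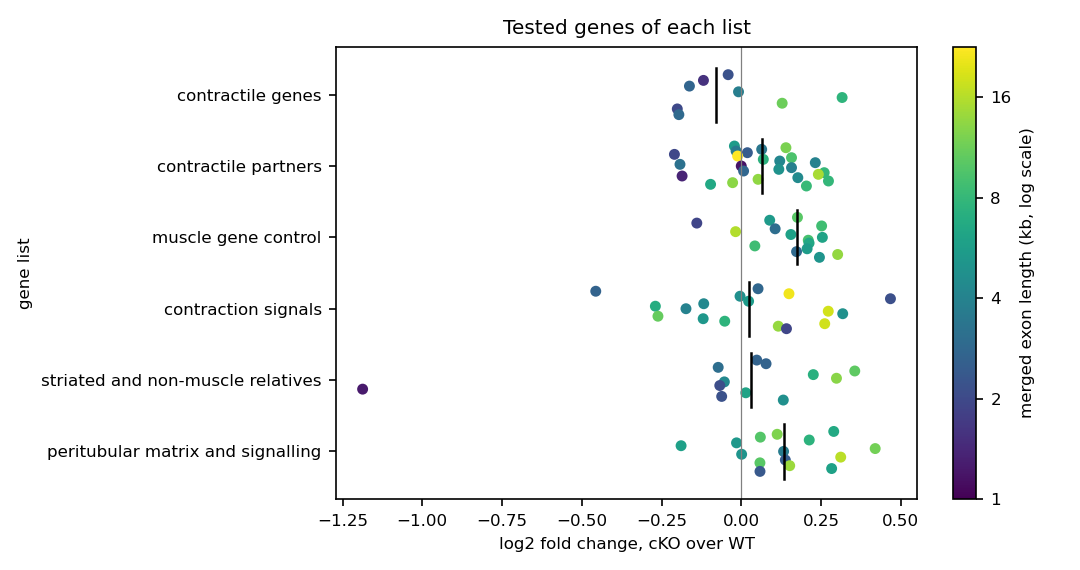
Log2 fold change (cKO over WT) of the tested genes of the contractile set and of 5 comparison lists, coloured by merged exon length on a log scale, with black lines at the medians. The median of the contractile genes is -0.08 and those of the other lists run from 0.02 to 0.18.

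Markers of other cell types were measured because they could share reads of these genes. Mural cells of vessels use most of the same contractile genes: 9 of their 10 listed markers were tested, 6 higher and 3 lower, and the summed level was 52.8 to 53.5 CPM in the WT-labelled libraries and 55.6 to 59.0 CPM in the cKO-labelled ones, without overlap. Their most abundant genes, and so the larger part of the sum, were Ndufa4l2, at 24.7 CPM, and Mcam, at 12.9 CPM. Of the 9 tested, 2 had groups that did not overlap, both higher, against 18.9% of all tested genes. The 3 lower were Kcnj8 (log2 fold change -0.36), Rgs5 (-0.0069) and Rgs4 (-0.0040). The part of vessel muscle in the contractile gene levels was not tested. Skeletal muscle also uses Des and Tpm2, and the summed level of its 10 markers was 17.7 to 23.3 CPM in the WT-labelled libraries and 20.5 to 23.2 CPM in the cKO-labelled ones, most of it Actn3 at 15.1 CPM. Over the 6 libraries Myh1 was at 2.70, Mylpf at 1.23 and Ckm at 1.06 CPM, and the other 6 markers were at 0.00970 (Tnnt3) to 0.574 CPM (Tnnc2), with Acta1 at 0.118 CPM. Myh1, a fast myosin heavy chain gene, was at 2.28 ± 0.396 CPM (SD, n = 3) with the WT label and 3.11 ± 0.347 CPM (SD, n = 3) with the cKO label, without overlap (edgeR adjusted p 0.299). The part of skeletal muscle in the levels of Des and Tpm2 was not tested. Tissues that adjoin the testis (epididymis, capsule and fat) summed to 16.9 to 20.7 and 15.0 to 19.5 CPM over 12 markers, 1 of which, Lcn8, had no read in any library. The most abundant were Adipoq, Lrrn4 and Plin1, at 6.45, 5.76 and 4.83 CPM. Some low markers differed by library: Upk3b was at 0.702 CPM in cKO 3, 0.447 in WT 2 and 0.0137 to 0.129 in the rest. Cfd was at 1.27 CPM in cKO 3 and 0 to 0.113 in the rest. The part of these tissues in the contractile gene levels was not tested. Endothelial markers summed to 47.3 to 48.7 CPM in the WT-labelled libraries and 48.9 to 58.1 CPM in the cKO-labelled ones, also without overlap. Vwf was the most abundant, at 23.4 CPM. Of the 8 endothelial markers, 2 had groups that did not overlap, both higher, against 18.9% of all tested genes. Summed levels overlapped between the groups for the Leydig (most abundant Cyp17a1), Sertoli (Amhr2) and macrophage (Mrc1) lists, at 708 to 921, 396 to 501 and 90.6 to 107 CPM over all libraries.

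The mean profile of the 8 genes over the 6 libraries was nearly flat, with a range of 0.12 log2 units. Of 16299 other genes with at least 1 CPM and at least that range, the 5 nearest to it by root mean square distance over 6 libraries were Ccnb1 (0.0159), Actn1 (0.0178), Eri2 (0.0213), Ctnnbip1 (0.0224) and Twistnb (0.0240 log2 units). The contractile genes lay from 0.0432 (Acta2) to 0.248 log2 units (Myh11) from this mean, which averages 2 genes that were higher and 6 that were lower. The 5 nearest genes were picked by their distance, so that they lay nearer than the members is no result. The other 6 were at 0.0619 (Des) to 0.102 log2 units (Tagln).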

How the data were processed

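The authors deposited 1 table of raw read counts per library, whole numbers in the layout of STAR's gene counts. Per the submitters' processing notes, STAR, HTSeq and DESeq2 were used with build mm10, with no versions or roles given. Per the labels, reads were single-end of 75 bp. Opposite-strand counts, 96.0% to 96.2% of the 2 strand columns, were used. Totals of reads outside single genes (14.8% to 16.7% of a library) were left out. GENCODE M21 (GRCm38) gave symbols, places and exon lengths, and matched 52147 of 53700 identifiers. The members and lists were chosen with earlier results of these data known.

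One edgeR 4.0.16 fit (R 4.3.3) over 21902 genes kept genes by filterByExpr (minimum count 10), scaled libraries by TMM and tested cKO against WT with the quasi-likelihood F test, 3 libraries each and no covariate, with Benjamini-Hochberg adjustment and a threshold of 0.05. Standard errors come from the F statistic and 95% limits from its degrees of freedom. The procedure was tested on simulated counts. Beyond the 8 genes and Msl3, the genes named are the 2 highest and 2 lowest of each list with at least 1 CPM, the most abundant marker of each other cell type and the 5 nearest profiles. Srf, Myocd, Myl9, the skeletal muscle markers beside Actn3, the genes with exact promoter boxes and those listed for an unadjusted p were named after their values were seen. So were Mcam, Rgs5, Rgs4, Kcnj8, Lrrn4, Plin1, Upk3b and Cfd. Alternatives were RLE scaling, library totals, no filter, 10 reads in every library, unstranded counts, a replicate block, robust fitting, DESeq2 1.42.0, libraries left out, and, added after seeing the data, loess corrections (span 0.3) for exon length and for length and GC content.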

Additional observations from a re-analysis of the deposited data

How the results depend on the processing

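The number of genes past the adjusted threshold was 4 with all libraries, 757 with no filter on low counts, 2 with unstranded counts, 193 with DESeq2 and 781 without WT replicate 2 and cKO replicate 1 together. It ran from 1 to 628 over the fits that left out 1 library, the highest without cKO replicate 1. The cause was not tested. With a replicate block it was 49, with 0 of the 8 contractile genes called. In that fit Myh11 was at 0.29 (edgeR adjusted p 0.112). Same-numbered libraries had deviations correlated at 0.35, 0.26 and -0.05. WT 1 and WT 2 correlated best with the cKO-labelled library of their own number, but WT 3 with cKO 2. The labels name no pairs, so the numbers were not taken as pairs, and a pairing of some libraries was not tested.

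Of the 8 contractile genes, Myh11 alone passed in any alternative. Its log2 fold change was 0.31 without the filter (edgeR adjusted p 0.0222), 0.49 without cKO replicate 1 (0.00927) and 0.51 without that library and WT replicate 2 (0.0016). In those 3 fits 757 of about 36600, 628 of about 22260 and 781 of about 21970 tested genes passed, against 4 of 21902 in the main fit. Leaving out 1 library gave 0.17 to 0.49 for Myh11, 0.084 to 0.17 for Mylk, -0.082 to 0.0011 for Acta2 and -0.054 to 0.059 for Des. Acta2 changed sign without WT replicate 1 (0.0011), with the length correction (0.0043) and with the length and GC correction (0.0016), and Mylk with the latter (-0.021). Des changed sign without WT replicate 1 (0.059) and without cKO replicate 1 (0.0018). Cnn1, Tagln, Actg2 and Tpm2 kept their direction in all 17 alternatives. Cnn1 and Des had the fewest reads, and their lower 95% limits were 75.9% and 85.7% of the WT level.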
